A study of Mus musculus with 8 samples.

Results

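The genes described here are 8 protein-coding genes outside retinoid metabolism that rose steeply in mouse fibroblasts given retinoic acid (RA): Ddx25, Prss35, Inmt, Gdpd5, 6330406I15Rik, Pitpnc1, Npr1 and Wnk4. They were picked by symbol for their large rises in the RA groups, and they are 8 of the 22200 genes in the deposited table. RNA was measured in 8 libraries of immortalised mouse embryonic fibroblasts (MEFs) on the C57BL/6 background, all labelled TAF4-/-. Untreated cells at 12 h gave 3 libraries, treatment with retinoic acid for 12 h gave 3 and treatment for 72 h gave 2. The TAF4-null state is shared by every group, so no value below compares cells with and without TAF4. Per the study's methods the TAF4-null line is 1 line, derived by Cre recombinase from MEFs with a floxed Taf4 allele, and the sample titles carry cl1, which resembles the name of its TAF4-expressing parent. The study used the 12 h time to look for early targets of RA and the 72 h time, when the cells had changed shape, for the later response. Because there was no untreated library at 72 h, treatment and time in culture cannot be told apart in comparisons of 72 h with untreated cells. The labels do not say whether replicates came from separate cultures, so p-values measure only the spread between these libraries, which may be technical.

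Retinoic acid is the active form of vitamin A. It enters the nucleus and binds retinoic acid receptors, which sit on DNA as partners of retinoid X receptors and switch from repressing to activating a gene when the ligand binds. The receptor pairs recognise direct repeats of a hexamer half-site, and the spacing between the repeats is part of what they read. TAF4 is a subunit of TFIID, the general factor that marks the start site of genes read by RNA polymerase II. The 8 genes have little in common in what they encode: an RNA helicase (Ddx25), a secreted protein of the serine protease family (Prss35), a small-molecule methyltransferase (Inmt), a lipid phosphodiesterase at the cell surface (Gdpd5), a protein linked to fat cell formation (6330406I15Rik), a lipid carrier (Pitpnc1), a hormone receptor (Npr1) and a kinase of ion transport (Wnk4).

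All values are normalised reads per gene. The authors quantile normalised the libraries, so the sorted values are identical in all 8 libraries, each column sums to 9442019 normalised reads, the lowest value of the scale is 1 and the depth of each library is lost. Of the 10 fibroblast markers, 8 had a mean of at least 10 normalised reads, Thy1 and Dcn being the exceptions, and the list summed to 216582 to 257145 over the libraries, while the lists of epithelial, endothelial and leukocyte markers summed to at most 79 each and the neuronal list, with 3 of 4 markers at a mean of at least 10, to 1863 to 2165 in every group. The libraries also differed within their groups along 1 shared axis, which held 50.1% of the within-group variance. On side 1 of it lay the libraries of untreated replicates 1 and 2, of replicate 3 of RA 12 h and of replicate 2 of RA 72 h. The other 4 lay on side 2, and the labels name no batch that matches this. Reads assigned to Taf4a, the symbol of Taf4 in the table, lay between 984 and 1449 in all libraries, which as reads over a whole gene do not check the deletion.

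Ddx25 (ENSMUSG00000032101, mm9 chr9:35349433-35366055, minus strand) encodes a DEAD-box RNA helicase known from the testis, where it is needed for sperm cells to mature. It stood at 3.38, 3.38 and 6.50 normalised reads in the 3 untreated libraries, at 107, 95.4 and 110.5 in the 3 libraries of RA 12 h and at 521 and 427 in the 2 of RA 72 h. The untreated libraries lay near the floor of the scale, and the 3 groups did not overlap. The genes were picked for large rises, so such separations, here and in the paragraphs below, are a description only. The share of all tested genes with such a separation was not computed. The group means were 4.42 ± 1.80 (SD, n = 3), 104 ± 7.92 (n = 3) and 474 ± 66.6 (n = 2), ratios to untreated of 23.6 at 12 h and 107 at 72 h.

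Prss35 (ENSMUSG00000033491, chr9:86636434-86650680, plus strand) encodes a secreted protein of the trypsin-like serine protease family that was first studied in the ovary. Its untreated values were 35.1, 11.9 and 16.5 normalised reads, the RA 12 h values 547, 449.75 and 495.5, and the RA 72 h values 1308 and 1183. Among the untreated libraries replicate 1 was the highest, and every RA library stood far above all 3. The means were 21.2 ± 12.3, 497.5 ± 48.8 and 1246 ± 88.1, ratios to untreated of 23.5 and 58.9.

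Inmt (ENSMUSG00000003477, chr6:55120620-55125037, minus strand) encodes indolethylamine N-methyltransferase, which adds methyl groups to tryptamine and related amines. The gene stood at 2.5, 1 and 1.75 normalised reads in untreated cells, at 34, 40.4 and 63.6 in RA 12 h and at 40.4 and 50.25 in RA 72 h. The RA groups overlapped each other and not the untreated group, and RA 12 h replicate 3 was the highest library. With means of 1.75 ± 0.75, 46.0 ± 15.6 and 45.3 ± 6.98, the ratios to untreated were 26.3 at 12 h and 25.9 at 72 h.

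These 3 genes had the largest rises of the 8 on log2(value + 1), although with a pseudocount of 10 Inmt (2.22 at 12 h and 2.23 at 72 h) fell below Gdpd5 (2.81 and 3.16) and 6330406I15Rik (2.58 and 3.43), and their promoters are printed because they show how unlike the starts of such genes can be. Each sequence holds the 300 bases around the start, most of them before it, on the gene's strand and was taken from RefSeq (GRCm38.p6). Capitals mark the GC box GGGCGG on either strand, or the TATA sequence TATAAA on the gene's strand.
Ddx25: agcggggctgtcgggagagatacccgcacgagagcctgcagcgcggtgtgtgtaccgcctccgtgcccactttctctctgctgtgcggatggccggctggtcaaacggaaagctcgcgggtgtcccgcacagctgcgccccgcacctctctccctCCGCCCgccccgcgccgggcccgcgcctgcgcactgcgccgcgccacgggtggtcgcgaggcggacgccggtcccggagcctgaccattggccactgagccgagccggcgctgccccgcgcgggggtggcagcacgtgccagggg
Prss35: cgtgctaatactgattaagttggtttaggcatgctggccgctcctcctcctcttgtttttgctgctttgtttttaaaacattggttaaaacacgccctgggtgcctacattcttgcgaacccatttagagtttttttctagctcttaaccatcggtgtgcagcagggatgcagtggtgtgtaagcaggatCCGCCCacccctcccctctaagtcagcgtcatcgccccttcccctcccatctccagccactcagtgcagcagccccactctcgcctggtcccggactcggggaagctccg
Inmt: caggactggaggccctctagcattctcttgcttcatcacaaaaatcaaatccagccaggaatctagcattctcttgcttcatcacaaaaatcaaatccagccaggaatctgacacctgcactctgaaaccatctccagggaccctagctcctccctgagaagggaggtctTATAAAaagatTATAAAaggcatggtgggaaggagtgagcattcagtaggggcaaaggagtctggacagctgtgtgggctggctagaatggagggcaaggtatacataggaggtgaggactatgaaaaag
The Ddx25 promoter had a GC content of 75.0% and an observed-to-expected CpG ratio of 0.973, and the Prss35 promoter 54.0% and 0.568. That of Inmt had 47.7% and no CpG, and it held TATAAA at 2 places. Over all 32851 promoters of the table the median GC content was 52.7% and the median CpG ratio 0.384, TATAAA was found in 8.32% and the GC box in 35.7%. Promoters of 7 of the 8 genes were in the table (Gdpd5 was not matched, and 6330406I15Rik was listed as Medag with 2 promoters). Among these 7 genes, Inmt was the one with TATAAA. The GC box was found once in Ddx25 and in Prss35, at 2 places in Npr1 and at 3 in Wnk4. The half-site AGGTCA, searched on both strands, was in 0 of the members' promoters, against 16.3% of all promoters, which says only that these letters are not in these windows.

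Gdpd5 (ENSMUSG00000035314, chr7:106530059-106609493, plus strand) encodes GDE2, a membrane enzyme that releases lipid-anchored proteins from the cell surface and drives motor neurons to differentiate. Its values were 43.2, 59.9 and 72.4 normalised reads in untreated cells, 454, 483 and 451 in RA 12 h and 619 and 571 in RA 72 h. The groups did not overlap, with the larger step before 12 h. The means were 58.5 ± 14.6, 463 ± 17.8 and 595 ± 33.9, ratios to untreated of 7.91 and 10.2.

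6330406I15Rik (ENSMUSG00000029659, chr5:150171051-150234298, plus strand) is named Medag in RefSeq and encodes a protein that promotes the formation of fat cells. It was at 67.6, 64.25 and 99.2 normalised reads in untreated cells, at 510.1, 556 and 444.5 in RA 12 h and at 1011 and 826 in RA 72 h. Again no group overlapped another, and untreated replicate 3 was the highest of its group. Means of 77.0 ± 19.3, 503 ± 55.9 and 919 ± 131 gave ratios to untreated of 6.53 and 11.9.

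Pitpnc1 (ENSMUSG00000040430, chr11:107069206-107332034, minus strand) encodes a soluble carrier of phosphatidylinositol and phosphatidic acid between membranes. In untreated cells it was at 129, 106 and 182.5 normalised reads, in RA 12 h at 681, 695.5 and 547 and in RA 72 h at 669 and 561. Both RA 72 h values fell within the range of the RA 12 h values, and all 5 RA libraries were above the untreated ones. The means were 139 ± 39.4, 641 ± 81.8 and 615 ± 76.6, ratios to untreated of 4.61 and 4.43.

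Npr1 (ENSMUSG00000027931, chr3:90254513-90269788, minus strand) encodes the receptor for the atrial and B-type natriuretic peptides, a guanylyl cyclase that makes cGMP when the hormone binds. The untreated libraries gave 11.4, 11.4 and 11 normalised reads, the RA 12 h libraries 85.6, 87.4 and 79.0 and the RA 72 h libraries 57.4 and 46.0. Here the 72 h libraries lay between the other groups and overlapped neither. Means of 11.25 ± 0.217, 84.0 ± 4.42 and 51.7 ± 8.04 gave ratios to untreated of 7.47 at 12 h and 4.59 at 72 h.

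Wnk4 (ENSMUSG00000035112, chr11:101121881-101138723, plus strand) encodes a kinase that controls sodium, potassium and chloride transporters through the kinases SPAK and OSR1. Its values were 66.4, 79.5 and 50.5 normalised reads in untreated cells, 157, 169 and 166 in RA 12 h and 173 and 227 in RA 72 h. The 3 groups did not overlap, although the lowest 72 h value was close to the highest at 12 h. The means were 65.5 ± 14.5, 164 ± 6.27 and 200.25 ± 38.4, ratios to untreated of 2.51 and 3.06, the lowest ratios of the 8 genes at both times.

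**Figure D1:**
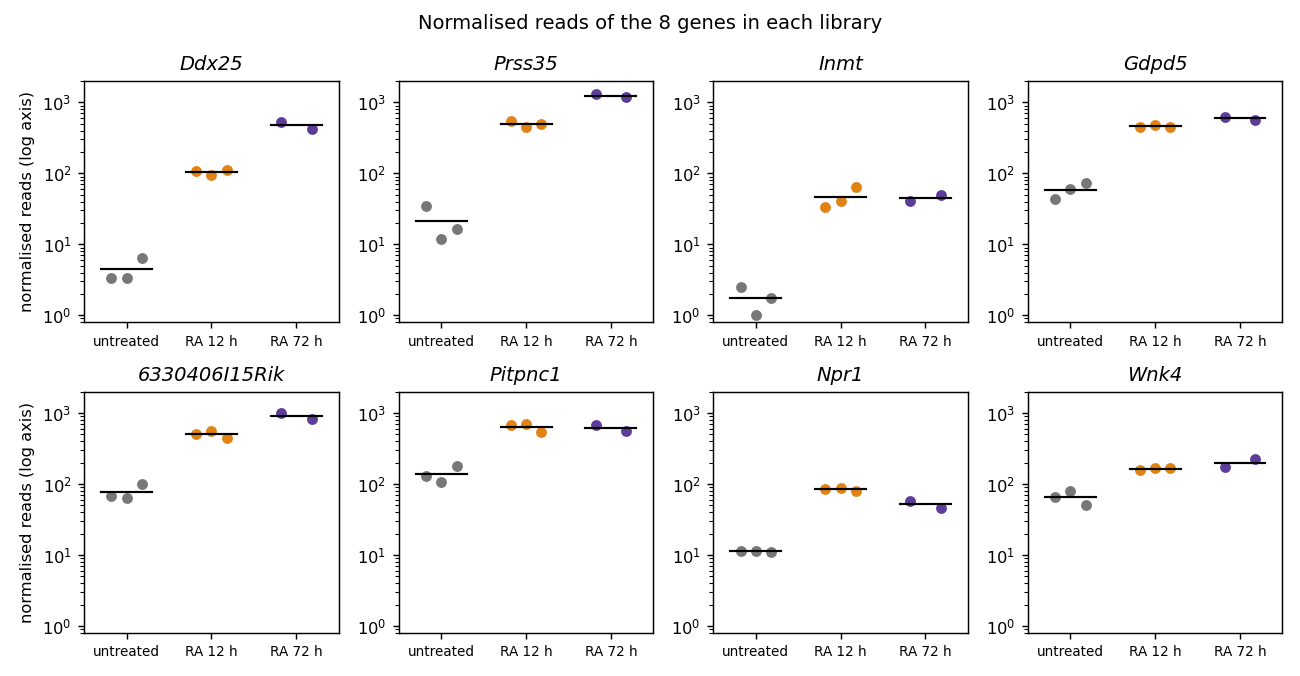
Normalised reads per library (log axis) for each of the 8 genes, with points for the libraries of untreated cells at 12 h, RA 12 h and RA 72 h and bars for the group means. In every panel all RA libraries lie above all untreated libraries, which the choice of the genes for large rises favours. The share of all tested genes separated in this way was not computed. Ddx25 spans the widest range, from 3.38 to 521.

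The log2 changes against untreated were taken from 1 limma fit over all 8 libraries, on log2(value + 1). At 12 h they were 4.63 ± 0.27 (SE) for Prss35, 4.33 ± 0.23 for Ddx25, 4.08 ± 0.33 for Inmt, 2.99 ± 0.16 for Gdpd5, 2.79 ± 0.20 for Npr1, 2.71 ± 0.16 for 6330406I15Rik, 2.23 ± 0.18 for Pitpnc1 and 1.34 ± 0.18 for Wnk4. In this order the SE ranges of the first 3 overlap, as do those of Gdpd5, Npr1 and 6330406I15Rik. At 72 h the changes were 6.50 ± 0.26 for Ddx25, 5.95 ± 0.31 for Prss35, 4.10 ± 0.37 for Inmt, 3.58 ± 0.18 for 6330406I15Rik, 3.35 ± 0.18 for Gdpd5, 2.17 ± 0.20 for Pitpnc1, 2.10 ± 0.22 for Npr1 and 1.61 ± 0.20 for Wnk4. Among 12673 tested genes (mean of at least 10 normalised reads), the members ranked from 2 (Prss35) to 86 (Wnk4) at 12 h and from 2 (Ddx25) to 93 (Wnk4) at 72 h. A gene was called when its Benjamini-Hochberg adjusted p was below 0.05 and its change at least 2-fold, and all 8 were called higher at both times, beside 1.11% of the tested genes called higher at 12 h and 2.15% at 72 h. They were picked for these rises, so the count is a description and no test is drawn from it. In a bulk culture, more cells with a transcript and more of it per cell cannot be told apart.

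Ddx25 and Inmt passed the filter on low values only through the RA groups, since their untreated means lay below 10. The size of their log2 changes therefore moved with the pseudocount. With 10 as pseudocount the change of Ddx25 was 2.99 at 12 h and 5.07 at 72 h, and that of Inmt 2.22 and 2.23. The background estimated from reads over long genes came to 43.8% of the untreated value of Ddx25, 29.4% for Inmt and 22% for Pitpnc1, which spans 263 kb. For Inmt the estimate, 0.51 normalised reads, lies below the lowest value of the scale (1), so its share has little meaning. The estimate also takes reads to spread along the gene, whereas the labels describe tags from cDNA cut with DpnII. In RA cells that background was at most 6.08% of the value of any member.

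**Figure D2:**
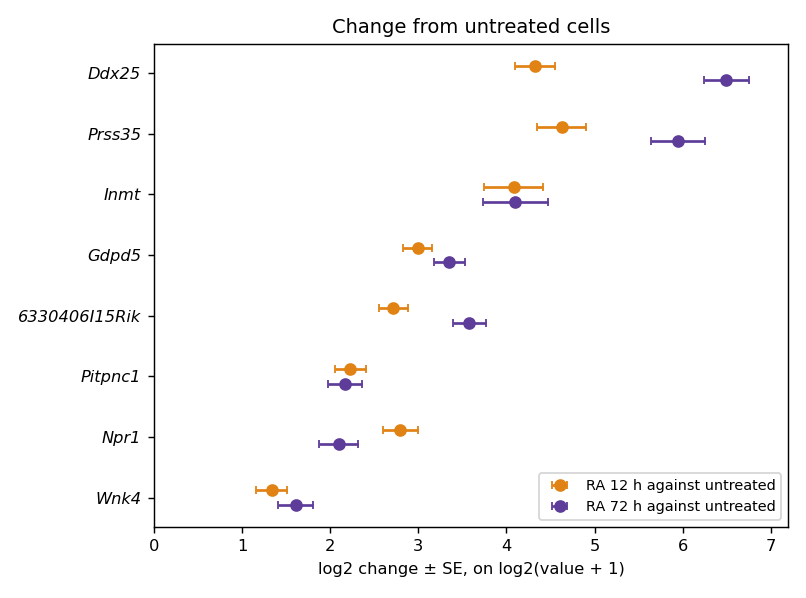
Log2 change from untreated, on log2(value + 1), of the 8 genes at RA 12 h and RA 72 h, with bars for the standard error of the limma fit. Ddx25 and Prss35 lie farthest to the right at 72 h (6.50 and 5.95) and Npr1 lies lower at 72 h (2.10) than at 12 h (2.79).

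How the response developed was read from the comparison of RA 72 h with RA 12 h. The genes were chosen for high values in these RA libraries, which favours a high 72 h value, so the differences and calls are given as a description and no test is drawn from them. Ddx25 and Prss35 met the call rule as higher at 72 h and 0 members as lower, beside 0.765% of all tested genes called higher, and nothing is read from that count. Ddx25 stood a further 4.54 times higher between the group means, a log2 change of 2.17 ± 0.26 (95% interval 1.61 to 2.72), the third largest of the 12673 genes. The call held under all 16 alternatives tried, with changes between 2.02 and 2.32. Prss35 stood 2.5 times higher, a log2 change of 1.33 ± 0.31 (0.66 to 1.99). Its change held between 1.25 and 1.40 over the alternatives, but the call was lost without any 1 of the 5 RA libraries (1.40, 1.25 and 1.32 when RA 12 h lost replicate 1, 2 or 3, and 1.25 and 1.40 when RA 72 h lost replicate 1 or 2).

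6330406I15Rik was higher at 72 h by 0.87 ± 0.18 on the log2 scale (0.47 to 1.26), under the 2-fold minimum. Without RA 72 h replicate 2 this change reached 1.01 and was called. Npr1 was the member with the largest difference in the other direction, -0.70 (-1.18 to -0.22), which did not meet the call rule. Both of its 72 h libraries were below all 3 of its 12 h libraries. The other differences were 0.36 for Gdpd5 (-0.03 to 0.75), 0.27 for Wnk4 (-0.15 to 0.70), 0.02 for Inmt (-0.79 to 0.83) and -0.06 for Pitpnc1 (-0.48 to 0.37). The highest upper end of these intervals was 0.83 on the log2 scale, in Inmt. The intervals measure only the spread between these libraries, which may be technical, and the genes were chosen on the same RA libraries. No limit on a further rise is therefore read from the intervals. Within the sides of the shared axis the change was 1.94 and 2.35 for Ddx25, 1.25 and 1.40 for Prss35, 0.89 and 0.92 for 6330406I15Rik and -0.77 and -0.58 for Npr1 (side 1 first). Inmt had -0.33 within side 1 and 0.12 within side 2, and Pitpnc1 0.04 and -0.04.

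The share of the 72 h rise in normalised reads that was already present at 12 h sets the members in an order. It was 21.3% in Ddx25, 38.9% in Prss35, 50.7% in 6330406I15Rik, 73.2% in Wnk4 and 75.4% in Gdpd5. The 12 h means of Inmt (102%) and Pitpnc1 (105%) were close to their 72 h means, though the interval of Inmt was wide (-0.79 to 0.83 on the log2 scale). That of Npr1 (180%) was above its 72 h mean, a difference that was not called. These shares are ratios of group means and carry no error. The median change between 12 h and 72 h was 0.32 over the 8 genes and -0.00 over all tested genes.

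**Figure D3:**
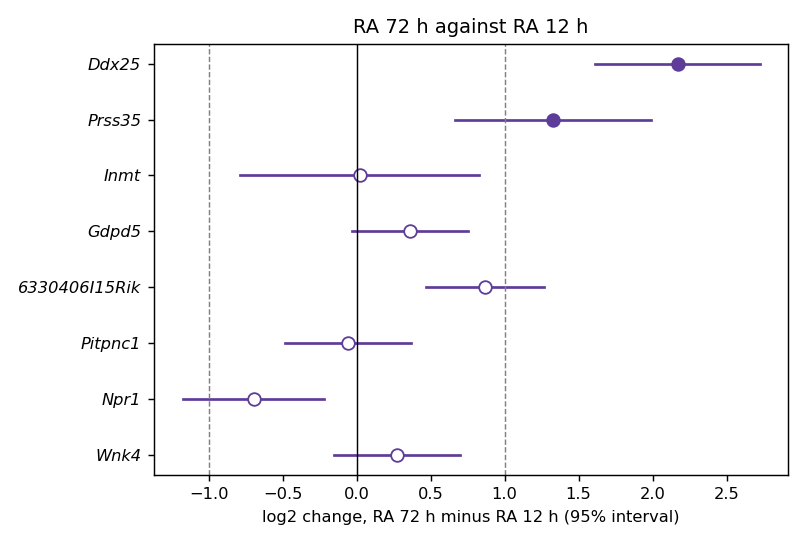
Log2 change of RA 72 h against RA 12 h for the 8 genes, with points for the estimate and bars for the 95% interval of the limma fit. The intervals of Ddx25 (1.61 to 2.72), Prss35 (0.66 to 1.99) and 6330406I15Rik (0.47 to 1.26) lie above 0 and that of Npr1 (-1.18 to -0.22) below it.

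Each member was then set beside its relatives and partners: 137 symbols in 8 lists, of which 124 were in the table and 98 were tested. At 12 h 3 of the 98 were called (3.06%, beside 1.42% of all tested genes), Pparg and Prss22 higher and Sgk1 lower. At 72 h 7 were called (7.14%, beside 3.67%), Fabp4, Npr3, Plau, Pparg, Prss22 and Prss23 higher and Sgk1 lower. Between 12 h and 72 h limma called 0 of them, beside 1.5% of all genes, while 29 (29.6%) had an unadjusted p below 0.05, as had 18.9% of all tested genes. The median log2 change of the 98 genes was 0.00 at 12 h, -0.01 at 72 h and 0.01 between the times, against -0.02, -0.02 and -0.00 over all genes. The members stand above the genes of their own lists at both times, which their choice by the size of the rise fixes.

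Around Npr1, 1 of 11 tested genes of natriuretic peptide and cGMP signalling was called. Npr3, the clearance receptor that takes up natriuretic peptides without making cGMP, was at 2443 ± 78.5, 4589 ± 176 and 6681 ± 629 normalised reads (untreated, RA 12 h and RA 72 h), a rise of 1.45 at 72 h (limma adjusted p 1.52e-06). At 12 h its change of 0.91 passed the adjusted p (4.11e-05) and not the 2-fold minimum. Between 12 h and 72 h Npr3 had a difference of 0.54 (0.31 to 0.77) where Npr1 had -0.70, neither called. Npr2, the receptor of C-type natriuretic peptide, had changes of -0.18 and 0.08. The peptides themselves, Nppa, Nppb and Nppc, were too low to be tested.

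Around Wnk4, 1 of 14 tested kinases, transporters and partners was called, and it fell. Sgk1, the serum- and glucocorticoid-regulated kinase, which phosphorylates WNK4, went from 6868 ± 838 to 3031 ± 134 at 12 h (-1.17, limma adjusted p 1.2e-05) and to 2434 ± 150 at 72 h (-1.49, limma adjusted p 3.16e-06). Wnk1, the widely expressed relative of Wnk4, had changes of 0.23 and -0.03. The rest of the list lay between -0.30 and 0.50 at the 2 times.

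Beside Prss35, 1 of 12 tested secreted serine proteases and partners was called at 12 h (8.33%, beside 1.42% of all tested genes). At 72 h 3 were called (25%, beside 3.67%). Changes were above 0 in 7 of the 12 at each time. The lowest were -0.75 at 12 h and -0.86 at 72 h, neither called. Prss22, a tryptase, rose from 10.2 to 32.6 and 45.9 normalised reads (1.59 and 2.08, limma adjusted p 0.00282 and 0.000459). Plau, the urokinase that activates plasminogen, went from 606 to 1176 and 1504, with 0.96 at 12 h, under the minimum, and 1.31 at 72 h. Its 12 h change passed without untreated replicate 1 (1.03) or RA 12 h replicate 2 (1.04). Prss23, the nearest relative of Prss35, went from 4033 to 6736 and 8189, with 0.74 at 12 h and 1.02 at 72 h. The call at 72 h was lost without untreated replicate 2 (0.99) or RA 72 h replicate 2 (0.98).

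Beside 6330406I15Rik, the list of adipocyte differentiation had 10 tested genes. At 12 h 1 of them was called (10%, beside 1.42% of all tested genes) and at 72 h 2 (20%, beside 3.67%). With so few genes nothing is read from these shares. Pparg, the nuclear receptor that directs fat cell formation, rose from 92.1 ± 18.7 to 231 ± 16 and 359 ± 57.3 normalised reads (1.34 and 1.96, limma adjusted p 0.000142 and 9.19e-06). Fabp4, a fatty acid carrier of fat cells and macrophages, went from 111 to 157 and 239, with 0.49 at 12 h and 1.09 at 72 h (limma adjusted p 0.000488). Without RA 72 h replicate 2 its 72 h change was 0.94 and was not called. The list as a whole had medians of 0.22 and 0.45. Changes were above 0 in 6 of the 10 genes at 12 h and in 8 at 72 h. The lowest were -0.30 and -0.54. Markers of mature fat cells stood near the floor in all groups, since the 4 in the table (Adipoq, Cidec, Lep and Retn) summed to 8.62 to 13.9 normalised reads in untreated cells, 6.38 to 7.38 in RA 12 h and 7.75 to 10.2 in RA 72 h.

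In the 4 remaining lists limma called 0 genes at any time, and 3, 5 and 15 of their 52 tested genes had an unadjusted p below 0.05 at 12 h, at 72 h and between the times (5.77%, 9.62% and 28.8%, beside 16.3%, 23.9% and 18.9% of all tested genes). The 31 tested DEAD-box helicases had medians of -0.08 at 12 h and -0.18 at 72 h and none went beyond 0.41 in the upward direction at 12 h or 0.28 at 72 h, beside the changes of 4.33 and 6.50 in Ddx25. Among the phosphatidylinositol transfer proteins, Pitpna had 0.05 and -0.23 and Pitpnb 0.17 and -0.39, and Gdpd1 among the phosphodiesterases had 0.11 and -0.46. Nnmt, a methyltransferase of nicotinamide and the nearest relative of Inmt, was at 229, 238 and 326 normalised reads, with changes of 0.04 and 0.50. Since Ddx25 is known from the testis, germ cell markers were read too: the 9 in the table summed to 33.6 to 44.4 normalised reads in untreated cells, 30.4 to 42.0 in RA 12 h and 33.5 to 35.8 in RA 72 h, and Dazl, Prm2, Tex101 and Tnp1 stood at the floor in most libraries. Of the 9, 1 had a mean of at least 10 normalised reads.

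**Figure D4:**
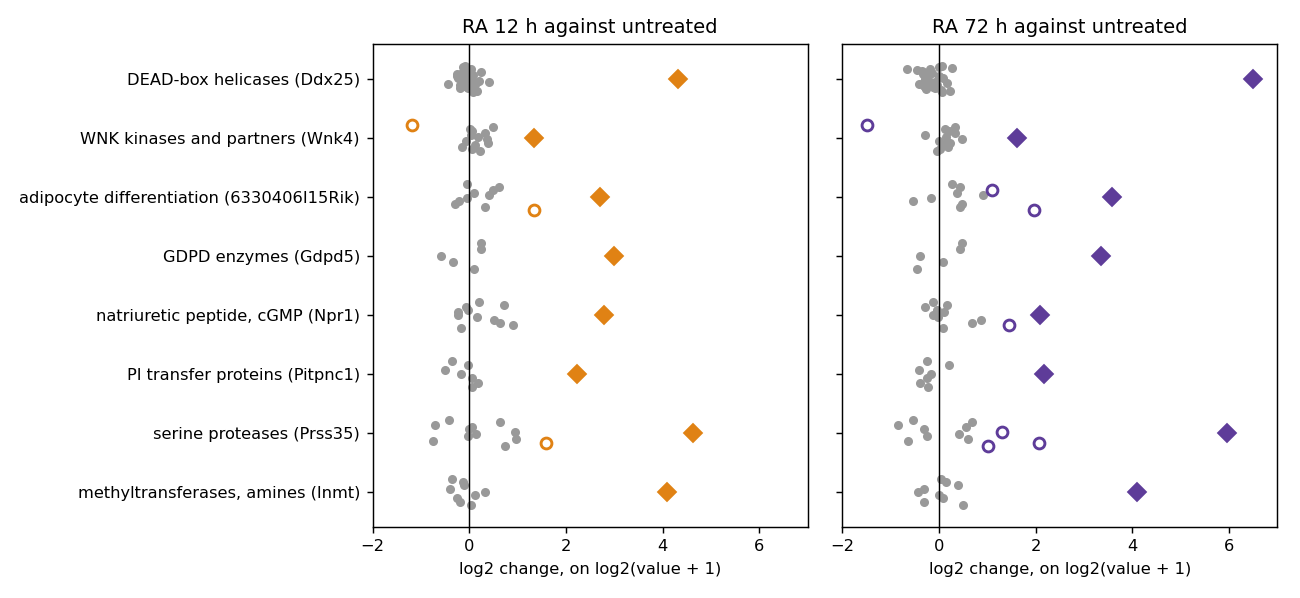
Log2 change from untreated of the tested relatives and partners of each member, by list, at RA 12 h and RA 72 h. Grey dots are genes that were not called, rings are called genes and diamonds are the members. The members were chosen for the size of this change, so their place to the right of their lists is given by that choice. Among the rings are Npr3 (1.45), Pparg (1.96) and Sgk1 (-1.49) at 72 h.

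Genes that lie beside the members were compared as position played no part in the choice. Of 54 genes within 100 kb of a member on mm9, 37 were tested. At 12 h 1 was called (2.70%, beside 1.42% of all genes), at 72 h 3 (8.11%, beside 3.67%) and between the times 0 by limma, where 8 (21.6%) had an unadjusted p below 0.05, beside 18.9% of all tested genes. The medians were 0.16, -0.03 and -0.04.

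Hyls1, a gene of centriole and cilium formation that lies 2.35 kb upstream of Ddx25, was at 92.8 ± 7.25, 117 ± 21.7 and 232 ± 16.7 normalised reads. Its change was 0.32 at 12 h and 1.32 at 72 h (limma adjusted p 0.000255). Between 12 h and 72 h it went up by 1.00 (limma adjusted p 0.00467), just short of the 2-fold minimum, and it was called without RA 12 h replicate 1 (1.13) or 2 (1.00) or RA 72 h replicate 2 (1.07). Pus3, a pseudouridine synthase gene that lies nearer to Ddx25 than Hyls1 does, had 0.09 and -0.49, both short of the threshold.

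S100a16, a calcium-binding protein gene 71.4 kb upstream of Npr1, rose from 164 ± 23.3 to 401 ± 40.5 at 12 h (1.29, limma adjusted p 4.28e-05) and was at 394 ± 40.4 at 72 h (1.27, limma adjusted p 9.1e-05). The gene nearest to Npr1 among those tested, Ilf2 (10.3 kb), had 0.03 and 0.16. Me1, the cytosolic malic enzyme, 46.5 kb upstream of Prss35, went from 862 to 1350 and 1717, with 0.66 at 12 h and 1.00 at 72 h (limma adjusted p 0.000163). Its 72 h change was 0.89 without untreated replicate 3 and 0.93 without RA 72 h replicate 2, and was then not called. Snap91, nearer to Prss35 at 9.30 kb, had 0.35 and 0.68. The nearest tested genes of the other members were not called: Psmd12 by Pitpnc1 (0.21 and 0.15), Ccdc56 by Wnk4 (0.35 and 0.31), Rps3 by Gdpd5 (-0.02 and -0.13), C330043M08Rik by Inmt (0.27 and 0.66) and Alox5ap by 6330406I15Rik (-0.09 and -0.97).

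**Figure D5:**
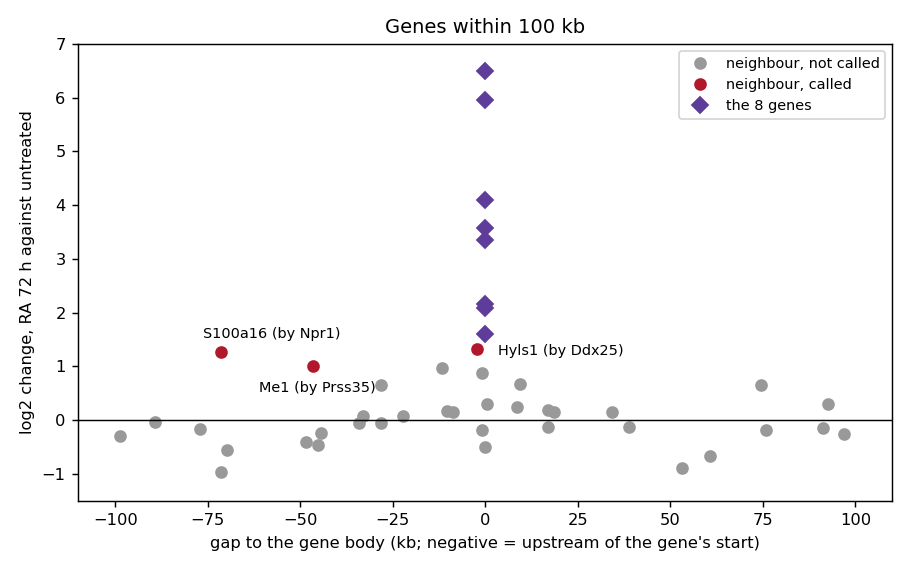
Log2 change at RA 72 h against untreated of the tested genes within 100 kb, against the gap in kb between the gene and the member (negative is upstream of the member's start). Diamonds at 0 are the members and dark red dots the called neighbours: Hyls1 (1.32), S100a16 (1.27) and Me1 (1.00).

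Receptor sites were looked for as sequence, on mm9, within 10 kb on each side of the first protein-coding start. Direct repeats of the nuclear receptor half-site were searched on both strands with a spacing of 1, 2 or 5 bases (DR1, DR2 and DR5), the spacings that RAR and RXR pairs are known to bind. Among the members only the 7 with a RefSeq promoter were searched, so Gdpd5 was left out and nothing is known of repeats near it. DR5 was found by 0 of the 7 members searched and by 7.37% of 22372 genes. DR1 was found by 2 of the 7, Prss35 and Wnk4, and by 14.7% of all genes, and DR2 by 1, Pitpnc1, and by 22.8%. The 4 places are printed on the strand of their gene, with the half-sites in capitals.
Prss35, DR1, chr9:86639819-86639871: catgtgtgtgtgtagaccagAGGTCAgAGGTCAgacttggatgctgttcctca
Wnk4, DR1, chr11:101127691-101127743: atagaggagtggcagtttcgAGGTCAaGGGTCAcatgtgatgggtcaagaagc
Pitpnc1, DR2, chr11:107327066-107327119: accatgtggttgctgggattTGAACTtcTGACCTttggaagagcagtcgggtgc
Pitpnc1, DR2, chr11:107336333-107336386: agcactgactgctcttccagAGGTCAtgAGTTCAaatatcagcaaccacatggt
The Prss35 place lies 3405 bases after the start and that of Wnk4 5830 bases after it, each in an intron of the gene. Of the Pitpnc1 places 1 is intronic, 4935 bases after the start, and the other intergenic, 4332 bases before it. When 1 of these stretches is reverse-complemented, 44 of the 54 bases are the same in both. These are matches of letters, and whether a receptor sits there was not measured.

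Other genes with a like course were ranked by the root-mean-square difference from the members' mean profile, on the log2 scale after subtracting the untreated mean, over the 8 libraries. Nearest was Tgm2 (0.294), the tissue transglutaminase, followed by Fbln7 (0.495), a matrix fibulin, Dhrs3 (0.561), which reduces retinal to retinol, AL669857.7 (0.643) and Ttc9 (0.798). Of the members, Gdpd5 (0.267) and 6330406I15Rik (0.304) lay closest to this mean, then Inmt (0.680), Npr1 (0.823) and Pitpnc1 (0.949), and Prss35 (1.5), Wnk4 (1.53) and Ddx25 (1.6) farthest. Taken 1 by 1, Gdpd5 and 6330406I15Rik were nearest to Tgm2 (0.424 and 0.448), Inmt to Dhrs3 (0.545), and Ddx25 and Prss35 to the RA-degrading enzyme Cyp26b1, though at distances of 1.13 and 1.01. Pitpnc1 had a close partner in Loxl2 (0.208), a lysyl oxidase of the matrix that was at 58.4, 56.8 and 63.6 normalised reads in untreated cells, 277, 247 and 254 in RA 12 h and 296 and 279 in RA 72 h. Npr1 was nearest to Ttc9 (0.257), which was at 7.38 to 9.62 in untreated cells, 49.0 to 58.8 in RA 12 h and 44.4 to 51.6 in RA 72 h. Between 12 h and 72 h Ttc9 had a log2 change of -0.14 (-0.68 to 0.41) and Npr1 of -0.70 (-1.18 to -0.22). Neither was called, and whether they differ was not tested. Wnk4 was nearest to Arhgap18 (0.168).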

How the data were processed

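The study used polyadenylated RNA. Per the labels, the cDNA was cut with DpnII and tags were read as 18 bases, whereas the study's methods describe fragmented RNA aligned to mm9 with Tophat, counted with Cufflinks and normalised with DESeq. The authors deposited normalised reads per Ensembl gene with decimal commas. The values were found to be quantile normalised, as the sorted values were identical in all 8 libraries. All values below 1000 were multiples of 0.125. These are not counts, so limma (version 3.58.1, R 4.3.3) was run on log2(value + 1) with 3 groups and a variance trend, over the 12673 genes with a mean of at least 10. P-values were two-sided and adjusted by Benjamini-Hochberg over all genes of a contrast. The precision rests on 3, 3 and 2 libraries. The deposited columns of group averages and log2 ratios (6) were not used, nor was 1 line without a gene.

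The members, the lists of relatives and the tests were chosen with earlier results of these data known. Named genes are the members, every called relative and neighbour, a few close relatives, the nearest tested neighbours and the nearest profiles. Gene positions are 1-based and come from an annotation of the same build, mm9, which held 96.7% of the identifiers. Background per Mb was the 25th percentile of reads over genes of at least 100 kb. The scripts were tested on simulated data. Alternatives were another pseudocount (10), no filter, a minimum mean of 20, the replicate number or the side as a term, no variance trend, median centring, background subtraction and leaving out each library. Whether counting used strand is not given in the sources used here, so reads of overlapping genes may be shared.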

Additional observations from a re-analysis of the deposited data

Results flagged for a closer look

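The RA 72 h and RA 12 h groups differed by at least 2-fold, with a limma adjusted p below 0.05 for the difference, in 4 of the genes named. The log2 differences were 2.17 for Ddx25 and 1.33 for Prss35, both members, and 1.70 for Fbln7 and 1.14 for Dhrs3, the genes that came after Tgm2 among those nearest to the members' mean profile. Tgm2, the nearest, had 0.70 and was not called. The members were chosen for high values in these RA libraries, and the others for a course like theirs over the same libraries, so the differences are a description and not a test of a later rise. In all 4 genes the 2 libraries of 72 h lay above the 3 of 12 h. These genes had already met the call rule, and the share of all tested genes with such a separation was not computed. Nothing is read from it. The call of Prss35 was lost without any 1 of the 5 RA libraries, where its change lay between 1.25 and 1.40. The call of Dhrs3 was lost with the gene-body background subtracted. The groups differed in time in culture as well as in time with RA, which cannot be told apart here.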

How the results depend on the processing

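Of 24 values of the members (8 genes, 3 contrasts) under 16 alternatives, 375 kept their direction and their side of the threshold, 8 lost a call, 1 gained one and 0 turned. The 8 members were called at 12 h and at 72 h in every alternative. Between 12 h and 72 h, 2 members were called. That number was 1 without a filter, 1 without the variance trend and 1 with the background subtracted, each time through Prss35, and it lay between 1 and 2 when a library was left out. The number of neighbours called between the times went from 0 to 1 (Hyls1) with the side of the shared axis as a term and to 1 with the background subtracted, and lay between 0 and 1 when a library was left out. At 12 h, leaving out a library gave 148 to 322 called genes in place of 180 (322 without untreated replicate 3) and 3 to 5 called relatives in place of 3. At 72 h it gave 2 to 3 called neighbours in place of 3 and 6 to 9 called relatives in place of 7. Without RA 72 h replicate 2, Me1, Prss23 and Fabp4 lost their calls there, and the neighbour Aoc3 (-1.46, from -0.89) and the relative F3 (-1.10, from -0.86) were newly called lower (both named after their values were seen). Me1 was also lost without untreated replicate 3. With a pseudocount of 10 the neighbours called at 72 h numbered 2, and with the side of the shared axis as a term 4. With the background subtracted Alox5ap was called as well (-1.58). Why these calls moved was not tested.

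The deviations of same-numbered libraries from their group means had Pearson's r across genes from -0.474 to 0.420 over the 7 pairs. With so few libraries per group and 1 shared axis in these deviations, the check cannot decide whether the numbers pair the samples. With the replicate number as a block, 174 genes were called at 12 h, 430 at 72 h and 172 between the times, and the numbers of called members were 8, 8 and 2. Me1 was then not called at 72 h (0.95).

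The depth of the libraries is not known, and RA 72 h has 2 libraries, so a late change in a gene near the floor, such as Inmt, rests on few reads of unknown number. The size of the rises in Ddx25 and Inmt depends on the pseudocount.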
